A study of Homo sapiens with 6 samples.

Results

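The cholesterol and fatty acid synthesis genes described here are 34 genes chosen by name: enzymes of the mevalonate pathway, enzymes from squalene to cholesterol, the SREBP regulators, 1 sterol carrier, and enzymes of fatty acid and lipid synthesis. Of the 20461 genes in the expression table, 33 were matched to these names by identifier, and all 33 entered the test of 14854 genes. ACACA was matched to no row, so no expression or peak value is given for it, and it enters only the counts of promoter motifs. The cells were PANC1, a human pancreatic ductal carcinoma line, and the question was which genes change upon treatment with gemcitabine, a nucleoside analog used as chemotherapy. RNA-seq was performed on 2 libraries of cells given vehicle (0.1% DMSO) and 2 libraries of cells given 50 nM gemcitabine, each for 48 h, and DNaseI-seq on 1 library per treatment. The study's methods call the RNA libraries biological replicates, and all come from 1 cell line. The labels name charcoal-stripped and dialyzed serum, which the methods limit to where appropriate, so which serum these cells had is not settled by the sources used here.

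Cells make cholesterol and fatty acids from acetyl-CoA. The transcription factors SREBP1 and SREBP2, products of SREBF1 and SREBF2, drive most of the enzymes of both routes. SCAP escorts the SREBP precursors to the Golgi for cleavage when membrane sterols are low, while INSIG1 and INSIG2 hold the SCAP complex in the endoplasmic reticulum when sterols are plentiful, and INSIG1 is itself a classic SREBP target. SREBP2 is best known for sterol genes and SREBP1 for fatty acid genes.

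The 4 libraries held between 13194533 and 15766237 fragments. Marker genes were read for their level only, which cannot establish that the line is PANC1. KRT7 lay between 1491 and 1658 FPKM and KRT8, KRT18 and VIM were also high, while KRT19 lay between 3.06 and 6.91 FPKM and EPCAM between 2.09 and 4.29 FPKM. Of the 4 lipid tissue markers, ALB and ADIPOQ were listed at 0 in every library, and the summed level of the list lay between 0.0256 and 0.0856 FPKM in vehicle and between 0.00495 and 0.206 FPKM in gemcitabine. Summed over 5 acinar markers, the level was 0.00586 and 0.0476 FPKM in vehicle against 0.426 and 0.360 FPKM in gemcitabine, with PRSS1 and PNLIP at 0. The 4 leukocyte markers summed to 10.9 and 10.7 FPKM in vehicle and to 20.5 and 24.7 FPKM in gemcitabine, nearly all of it CD68, with CD3E and LYZ at 0. The 4 fibroblast markers summed to 872 and 875 FPKM against 1002 and 1114 FPKM, nearly all of it COL1A1, with PDGFRA at 0 in 3 of the 4 libraries. The 2 endothelial markers matched summed to at most 0.279 FPKM. The part of these shifts in the results below was not tested, and in bulk RNA fewer cells of a type and less RNA per cell cannot be told apart.

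Among the 33 genes, the enzymes at the head of sterol synthesis were mostly higher after gemcitabine, and more of the fatty acid and lipid synthesis genes fell than rose. Of the 7 mevalonate pathway genes, 5 rose and none fell, whereas of the 9 fatty acid and lipid synthesis genes 5 fell, ELOVL6 among them in fragment counts but not in FPKM, and 1 rose (edgeR's quasi-likelihood test, Benjamini-Hochberg adjusted p under 0.05). The steps from squalene to cholesterol were mixed, with 4 of 11 genes higher and 2 lower, and of the 5 SREBP regulators 3 fell and 1 rose. The single sterol carrier, STARD4, rose. In all, 12 of the 33 genes rose and 10 fell by this rule, against 18.5% and 20.0% of all genes tested (22 of 33 in either direction against 38.5%). The genes are also expressed above the average gene, with a median of 30.9 FPKM in vehicle against 11.9 FPKM over all genes tested, and at such levels small shifts pass more easily.

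**Figure D1:**
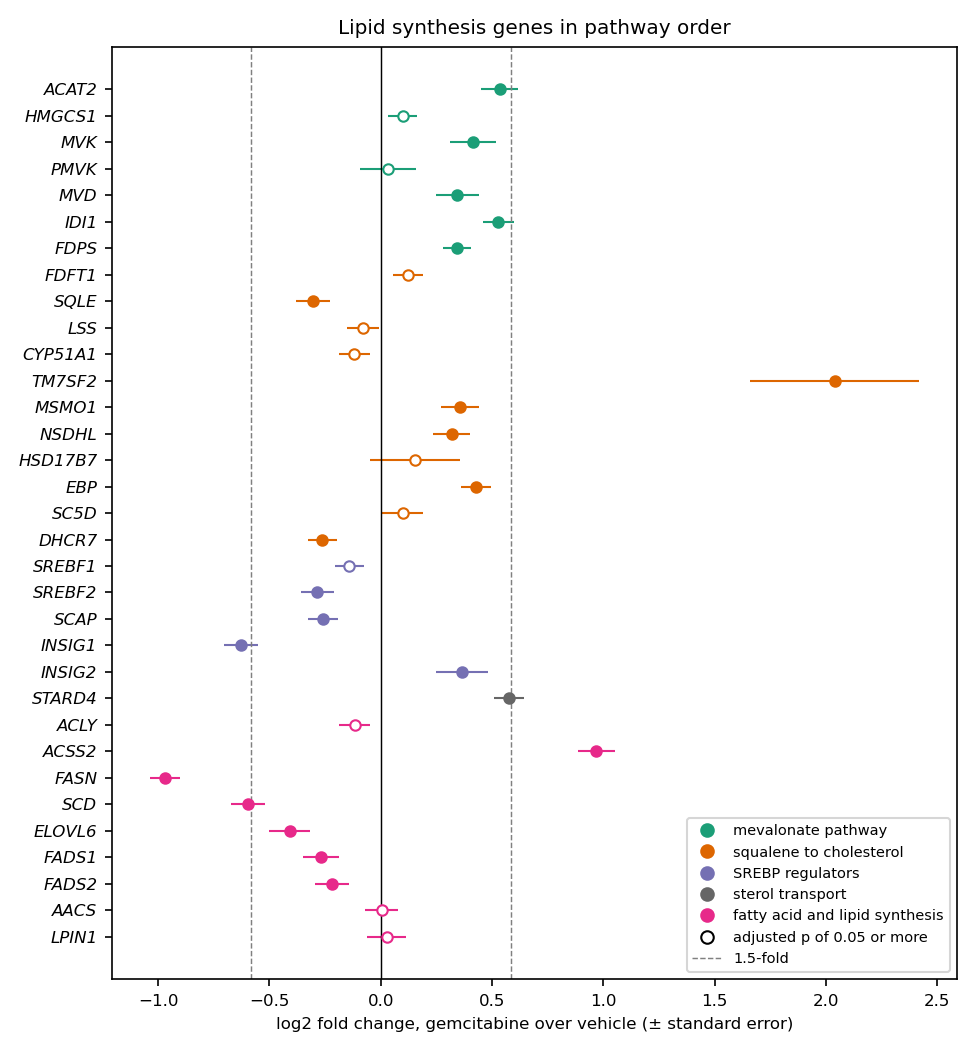
Log2 fold change (gemcitabine over vehicle, horizontal axis) of the 33 genes in pathway order, 2 libraries per treatment. Bars are 1 standard error, derived from edgeR's F statistic. Filled points passed an adjusted p of 0.05, open points did not, and dashed lines mark 1.5-fold. All 7 mevalonate pathway genes lie above 0, and FASN, SCD and INSIG1 lie at or beyond the lower dashed line.

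Most of these shifts were small. The study's criteria also ask for a fold above 1.5, a mean of at least 0.1 FPKM in 1 treatment and a difference of at least 1 FPKM. Here the adjusted p and the fold were edgeR's, from counts, in place of the study's Cuffdiff values. The criteria are meant in this form throughout. By these criteria 2 genes were higher (TM7SF2 and ACSS2) and 3 were lower (FASN, INSIG1 and SCD), against 5.69% and 4.43% of all genes tested. In either direction this was 5 of 33 against 10.1%. In mean FPKM, gemcitabine over vehicle, INSIG1 (0.751-fold) and SCD (0.719-fold) stayed within the fold limit. There ACAT2 (1.56), IDI1 (1.59), STARD4 (1.65) and LPIN1 (1.61), not called here, lay beyond it. The median log2 fold change was 0.03 over the 33 genes and 0.01 over all genes tested, and 19 of the 33 were above 0 against 50.7% of all genes tested. By role, the median was 0.34 for the mevalonate pathway, 0.12 from squalene to cholesterol, -0.26 for the SREBP regulators and -0.22 for fatty acid and lipid synthesis. On the scale of log2(FPKM + 1) the last turned to 0.05 and that of the regulators was -0.08, and with library totals the regulators stood at -0.15. The treatments did not overlap for 29 of the 33 genes, 15 higher and 14 lower, where 35.0% and 34.7% of all genes tested behaved so. For genes that passed the test, lack of overlap mostly follows from that choice on the same 4 libraries. It is no further support, here or below.

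CPM values below are counts in each library per 1e6 fragments. They were scaled by TMM factors, a correction for library composition, and each adjusted p is from the same edgeR fit over all 14854 genes. The CPM of a gene is comparable between libraries but not between genes. Summed over the 9 fatty acid and lipid synthesis genes it was 3869 and 3987 CPM in the vehicle libraries and 2731 and 3055 CPM after gemcitabine. Most of the fall of this sum came from SCD (1548 and 1586 CPM to 954 and 1118 CPM) and FASN (683 and 709 CPM to 358 and 353 CPM). In the same group ACSS2 rose, and ACLY, AACS and LPIN1 did not pass the test. For the 7 mevalonate genes the sum moved the other way, from 424 and 434 CPM to 556 and 540 CPM. From squalene to cholesterol it was 745 and 758 CPM in vehicle and 747 and 777 CPM after gemcitabine, so the vehicle and treated libraries overlapped. Together the 33 genes took 0.597% and 0.614% of all fragments in vehicle and 0.530% and 0.557% after gemcitabine.

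**Figure D2:**
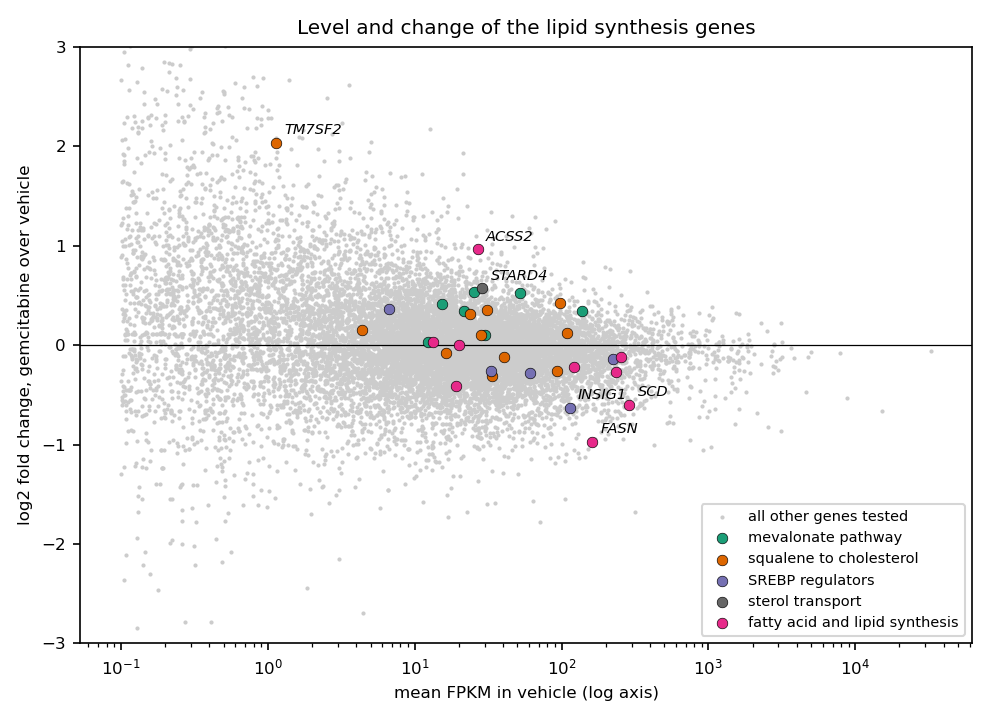
Mean FPKM in vehicle (horizontal log axis) against log2 fold change, gemcitabine over vehicle (vertical axis), for the 33 genes in colour by role and all other genes tested in grey. Genes under 0.1 FPKM in vehicle or beyond a log2 fold change of 3 in either direction are not drawn. SCD, FASN and INSIG1 combine a mean above 100 FPKM with a fall, while TM7SF2 rose from a mean of 1.14 FPKM.

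The mevalonate pathway, which builds the isoprenoid units of sterols, rose along most of its length. ACAT2, which joins acetyl-CoA units at the head of the route, measured 43.8 and 45.4 CPM in vehicle and 68.7 and 60.5 CPM after gemcitabine (log2 fold change 0.53 ± 0.08 (SE), adjusted p 1.44e-04). IDI1, which isomerises the isoprenoid unit, measured 105.9 and 112.4 CPM in vehicle and 161.5 and 153.5 CPM after gemcitabine (0.53 ± 0.07, adjusted p 3.03e-05). Both stood close to 1.45-fold higher, just under the fold limit, with no overlap between treatments. MVK, mevalonate kinase, went from 17.2 and 19.0 CPM to 24.4 and 23.9 CPM (0.42 ± 0.10, adjusted p 5.43e-03). MVD, which makes isopentenyl diphosphate, went from 22.4 and 23.7 CPM to 30.1 and 28.5 CPM (0.34 ± 0.09, adjusted p 9.85e-03). These kinase and decarboxylase steps were among the lower expressed of the route. FDPS, farnesyl diphosphate synthase, went from 111.8 and 111.2 CPM to 141.4 and 141.3 CPM (0.34 ± 0.06, adjusted p 7.65e-04). HMGCS1, which condenses acetoacetyl-CoA with acetyl-CoA, and PMVK, the second kinase, did not pass the test, with log2 fold changes of 0.10 and 0.03.

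Of the steps from squalene to cholesterol, the largest fold belonged to TM7SF2, a sterol C14-reductase. TM7SF2 held 8 and 10 fragments in vehicle and 33 and 36 fragments after gemcitabine, a log2 fold change of 2.04 ± 0.38 (adjusted p 6.73e-04). These are few fragments, and its standard error is the widest of the 33 genes. EBP, the sterol isomerase, went from 66.5 and 70.1 CPM to 92.4 and 91.4 CPM (0.43 ± 0.07, adjusted p 2.20e-04). MSMO1, a C4-methylsterol oxidase, went from 52.1 and 60.8 CPM to 69.7 and 74.9 CPM (0.36 ± 0.08, adjusted p 3.84e-03). NSDHL, which acts with MSMO1 in removing the C4 methyl groups, went from 33.2 and 36.0 CPM to 43.9 and 42.4 CPM (0.32 ± 0.08, adjusted p 8.25e-03). In each of these 4 genes both treated libraries stood above both vehicle libraries.

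SQLE and DHCR7 fell instead. SQLE, the squalene epoxidase and first oxygenation step of the route, measured 79.3 and 80.2 CPM in vehicle and 60.4 and 68.7 CPM after gemcitabine (-0.31 ± 0.08, adjusted p 5.85e-03). DHCR7, the last reductase before cholesterol, measured 154.4 CPM in both vehicle libraries and 127.4 and 129.9 CPM after gemcitabine (-0.26 ± 0.06, adjusted p 5.04e-03). The vehicle values of either gene lay above the treated ones, by less than 1.5-fold. The remaining 5 genes did not pass the test: squalene synthase FDFT1 (0.12), lanosterol synthase LSS (-0.08), the demethylase CYP51A1 (-0.12), the reductase HSD17B7 (0.15) and the desaturase SC5D (0.10), values being log2 fold changes.

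**Figure D3:**
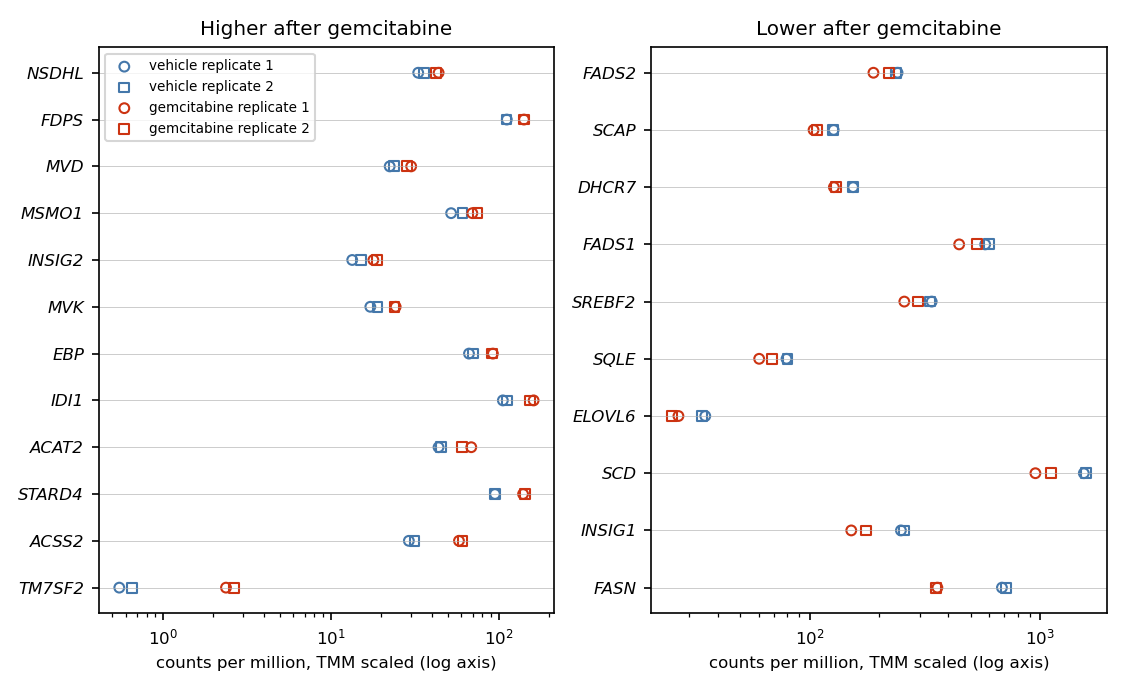
TMM-scaled CPM in each of the 4 libraries (horizontal log axis) for the 12 genes that rose, left, and the 10 that fell, right, by an adjusted p of 0.05 in edgeR. Circles and squares are replicates 1 and 2, vehicle in blue and gemcitabine in red. The colours do not overlap in any of the 22 genes. These were picked by the test on the same libraries, so this lack of overlap is no further support. Of all genes tested, 35.0% were higher and 34.7% lower without overlap. SCD, INSIG1, SREBF2, SQLE, FADS1 and FADS2 were lower in gemcitabine replicate 1 than in replicate 2.

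Of the SREBP regulators, INSIG1, SREBF2 and SCAP fell and INSIG2 rose. INSIG1 measured 248.9 and 257.3 CPM in vehicle and 151.5 and 176.0 CPM after gemcitabine, a log2 fold change of -0.63 ± 0.08 (adjusted p 1.75e-05). Its paralog INSIG2 moved the other way from a lower level, from 13.4 and 15.2 CPM to 17.9 and 19.0 CPM (0.37 ± 0.12, adjusted p 0.0227). SREBF2 went from 338.5 and 334.0 CPM to 257.5 and 294.8 CPM (-0.28 ± 0.07, adjusted p 6.92e-03). SCAP went from 127.1 and 126.3 CPM to 104.0 and 107.7 CPM (-0.26 ± 0.07, adjusted p 5.93e-03), and its estimate in 1 vehicle library was marked as failed in the deposited table. Thus 3 of the 4 genes that passed were lower in both treated libraries. SREBF1 measured 364.3 and 353.9 CPM in vehicle and 330.9 and 319.9 CPM after gemcitabine, and this fold change of -0.14 ± 0.07 did not pass the test (adjusted p 0.0985). STARD4, a soluble carrier that moves cholesterol between membranes, went from 95.0 and 95.3 CPM to 139.7 and 144.1 CPM (0.58 ± 0.07, adjusted p 1.01e-05), which is 1.49-fold and so falls just short of the fold limit.

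The fatty acid route held FASN and SCD, which fell, and ACSS2, which rose. FASN, which assembles palmitate, measured 683 and 709 CPM in vehicle and 358 and 353 CPM after gemcitabine, 1.96-fold lower (log2 fold change -0.97 ± 0.07, adjusted p 1.38e-07). SCD, which desaturates stearate and palmitate, measured 1548 and 1586 CPM in vehicle and 954 and 1118 CPM after gemcitabine, 1.51-fold lower (-0.60 ± 0.08, adjusted p 3.30e-05). Against these, ACSS2, which makes acetyl-CoA from acetate, measured 29.2 and 31.5 CPM in vehicle and 58.0 and 60.9 CPM after gemcitabine, 1.96-fold higher (0.97 ± 0.08, adjusted p 8.31e-07). The treated libraries of all 3 genes lay well clear of the vehicle ones. ELOVL6, the elongase of palmitate, went from 35.2 and 34.1 CPM to 26.9 and 25.3 CPM (-0.41 ± 0.09, adjusted p 2.34e-03).

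FADS1 and FADS2, the desaturases of polyunsaturated fatty acids, fell slightly. FADS1 went from 578 and 599 CPM to 445 and 532 CPM (-0.27 ± 0.08, adjusted p 0.0164) and FADS2 from 240.7 and 236.5 CPM to 189.1 and 221.0 CPM (-0.22 ± 0.08, adjusted p 0.0347). Neither pair of treated values reached the vehicle values, but neither gene passed the test with library totals (-0.16, adjusted p 0.101, and -0.11, adjusted p 0.229), without the filter on low counts (0.0527 and 0.0803), or when either vehicle library was left out. FADS2 was also lost without gemcitabine replicate 1 (-0.11, adjusted p 0.139). ACLY, which makes cytosolic acetyl-CoA from citrate, did not pass the test (-0.12, adjusted p 0.192), nor did AACS (0.004), which activates acetoacetate, and LPIN1 (0.03), a phosphatidate phosphatase.

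Per length, SCD, ACLY and FADS1 were the most abundant of the 33 genes in vehicle. In vehicle the mean was 289 FPKM for SCD, 255 FPKM for ACLY, 235 FPKM for FADS1, 225 FPKM for SREBF1 and 161 FPKM for FASN, followed by FDPS at 137 FPKM. After gemcitabine ACLY led with 264 FPKM, before SREBF1 at 246 FPKM, FADS1 at 215 FPKM and SCD at 207 FPKM, while FASN stood at 84.8 FPKM, below FDPS at 185 FPKM. In vehicle, SCD lay above ACLY in both libraries (288 and 289 against 259 and 250 FPKM), whereas after gemcitabine it lay below ACLY in both (190.4 and 224 against 273 and 256 FPKM). The 10 genes that fell had a median of 103.7 FPKM in vehicle, the 12 that rose 26.1 FPKM, and the 11 that did not pass 28.5 FPKM, with wide overlap (19.1 to 289, 1.14 to 137 and 4.40 to 255 FPKM).

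Some genes share exonic bases with a neighbour, and how the counting used strand is not given in the sources used here, so reads of such pairs may have been mixed. ACAT2 shares 454 bases at most with a neighbour on the opposite strand (TCP1 or SOD2), and TCP1 itself fell (log2 fold change -0.25, adjusted p 5.98e-03 in edgeR) while ACAT2 rose. FADS1 and FADS2 share 490 bases on opposite strands. FADS2 also shares at most 490 bases with FEN1, which lies on the same strand. FEN1 held 2059 to 2586 fragments per library and did not pass the test (-0.14, adjusted p 0.137). CYP51A1 shares up to 2844 bases with a neighbour, among them AKAP9 (-0.31, adjusted p 8.52e-03 in edgeR) and genes without a name. EBP shares 644 bases with a gene without a name, SREBF1 556 bases with RAI1 (-0.48) and MVK 225 bases with MMAB (0.18). TM7SF2 shares 18 bases with VPS51, which held 1366 to 1534 fragments per library and did not pass the test (0.02, adjusted p 0.847).

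Promoters are shown for TM7SF2, ACSS2, INSIG1 and SCD, which met the study's criteria, for STARD4, just short of them, and for SREBF2, the sterol regulator. Sequences are from RefSeq on GRCh38.p14, 250 bases before to 50 after 1 start per gene, read 5′ to 3′ on the gene's strand. Capitals mark CACNCCAC, the core of the sterol regulatory element that SREBPs bind, with its longer form TCACNCCAC, and CCAAT, the box bound by NF-Y, a common partner of SREBPs. Either orientation is marked, so that capitals opening with GTGG or reading ATTGG are matches on the other strand. The windows are INSIG1 chr7:155297628-155297927 (+ strand), SCD chr10:100346983-100347282 (+ strand), SREBF2 chr22:41832855-41833154 (+ strand), STARD4 chr5:111512486-111512785 (- strand), ACSS2 chr20:34874739-34875038 (+ strand) and TM7SF2 chr11:65111622-65111921 (+ strand).
INSIG1: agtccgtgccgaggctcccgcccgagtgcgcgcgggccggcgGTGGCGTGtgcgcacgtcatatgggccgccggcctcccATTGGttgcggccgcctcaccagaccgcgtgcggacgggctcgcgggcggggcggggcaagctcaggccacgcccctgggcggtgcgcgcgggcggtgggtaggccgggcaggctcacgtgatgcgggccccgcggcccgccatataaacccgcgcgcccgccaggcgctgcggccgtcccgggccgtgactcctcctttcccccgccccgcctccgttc
SCD: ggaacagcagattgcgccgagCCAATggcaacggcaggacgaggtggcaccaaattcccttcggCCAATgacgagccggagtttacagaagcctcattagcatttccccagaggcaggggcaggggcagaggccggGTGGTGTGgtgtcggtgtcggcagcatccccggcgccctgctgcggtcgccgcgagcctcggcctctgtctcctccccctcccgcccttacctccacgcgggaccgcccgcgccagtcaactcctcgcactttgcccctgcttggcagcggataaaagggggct
SREBF2: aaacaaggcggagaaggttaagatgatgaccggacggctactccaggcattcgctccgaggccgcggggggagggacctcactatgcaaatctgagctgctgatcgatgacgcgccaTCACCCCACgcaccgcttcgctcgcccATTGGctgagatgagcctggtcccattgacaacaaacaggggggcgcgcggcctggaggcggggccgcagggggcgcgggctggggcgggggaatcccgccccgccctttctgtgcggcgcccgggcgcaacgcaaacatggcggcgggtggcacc
STARD4: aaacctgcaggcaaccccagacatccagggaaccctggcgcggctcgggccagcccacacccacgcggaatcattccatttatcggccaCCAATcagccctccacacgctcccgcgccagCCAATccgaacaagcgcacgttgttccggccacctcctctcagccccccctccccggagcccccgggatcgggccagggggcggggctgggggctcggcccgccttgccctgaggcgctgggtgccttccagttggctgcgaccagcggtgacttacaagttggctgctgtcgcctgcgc
ACSS2: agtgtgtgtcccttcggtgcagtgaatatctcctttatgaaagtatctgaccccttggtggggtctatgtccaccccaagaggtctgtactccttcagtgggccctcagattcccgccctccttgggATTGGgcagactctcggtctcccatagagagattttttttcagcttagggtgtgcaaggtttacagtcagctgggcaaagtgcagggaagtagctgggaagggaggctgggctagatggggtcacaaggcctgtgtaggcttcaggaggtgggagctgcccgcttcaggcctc
TM7SF2: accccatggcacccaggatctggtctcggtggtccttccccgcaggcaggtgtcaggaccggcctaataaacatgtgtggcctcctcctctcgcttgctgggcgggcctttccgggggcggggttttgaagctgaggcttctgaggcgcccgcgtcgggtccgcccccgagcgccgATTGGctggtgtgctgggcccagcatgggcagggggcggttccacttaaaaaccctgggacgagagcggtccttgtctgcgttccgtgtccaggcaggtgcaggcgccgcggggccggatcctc

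CACNCCAC stood in the windows of INSIG1, SCD and SREBF2, which fell, and in that of SC5D, which did not pass the test. In SREBF2 it had the full form TCACNCCAC. The table held a promoter for 30 of the 34 listed names, ACACA included, and the names without one were ACAT2, FDFT1, SQLE and FASN. The matches were thus 4 of 30 (13.3%), against 5.68% of the 11460 promoters of tested genes (5.74% of all 27305 promoters), and TCACNCCAC was in 1 of 30 against 1.13%. CCAAT was in 18 of 30 (60.0%) against 36.4% of the promoters of tested genes, and the GC box GGGCGG in 28 of 30 (93.3%) against 68.3%. The palindromic E-box CACGTG was in 4 of 30 (INSIG1, LSS, SC5D and SCAP), 13.3% against 9.70% of the promoters of tested genes. TM7SF2, ACSS2 and STARD4, which rose, held CCAAT but not CACNCCAC in these windows. The same was true of DHCR7, which fell, while SCAP, ELOVL6, FADS1 and FADS2 fell and held neither. INSIG1, SCD and SREBF2 held CCAAT as well. Such matches of letters are descriptions of 1 window per gene and do not show binding.

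DNaseI-seq marks chromatin open to the nuclease, and the deposited peak lists held 9606 peaks for vehicle and 10695 peaks for gemcitabine. With 1 library per treatment there is no replicate check and no test. A peak within 1000 bases of an annotated start (hg19) was present at 13 of the 33 genes in vehicle (39.4%), against 27.8% of 14154 tested genes with an annotated start, and at 15 in gemcitabine (45.5%), against 32.2%. Both lists held a peak at 10 genes (30.3% against 21.0%): HMGCS1, MVK, PMVK, IDI1, FDPS, SQLE, LSS, CYP51A1, SREBF2 and ACSS2. Thus 5 of 7 mevalonate genes had a peak in both lists, as did 1 of 9 fatty acid and lipid genes.

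**Figure D4:**
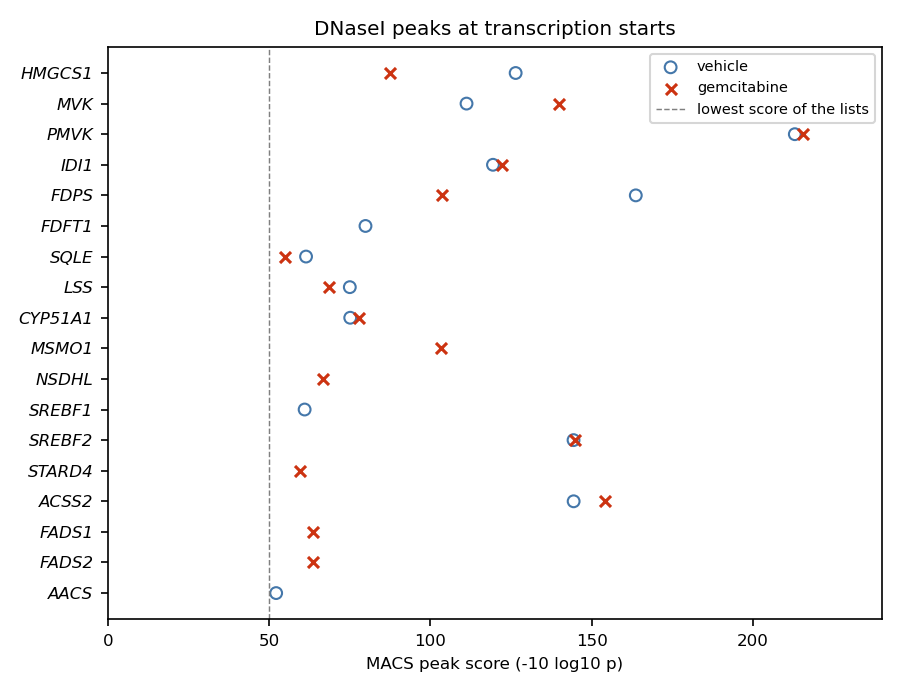
MACS score (-10 log10 p, horizontal axis) of the peak nearest to a start, within 1000 bases, for the 18 genes with a peak in either list. Vehicle is drawn as circles and gemcitabine as crosses, 1 library each. The dashed line marks 50, the lowest score of the lists. PMVK has the highest scores in both, and FADS1 and FADS2 share 1 peak.

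Taking the peak nearest to a start, PMVK carried the highest score of the set, 213.0 in vehicle and 215.7 in gemcitabine. The score is -10 times the log10 of the peak caller's p. The peak at the SREBF2 start (hg19 chr22:42228404-42229418 in vehicle) scored 144.4 and 144.8, and that at an ACSS2 start (chr20:33463431-33464591) 144.4 and 154.1. The RNA of ACSS2 was 1.96-fold higher after gemcitabine, as described above, and that of SREBF2 lower. At FDPS the score was 163.7 in vehicle and 103.6 in gemcitabine, and at HMGCS1 126.4 and 87.5, while at MVK it was 111.2 and 139.9. Peaks at FDFT1, SREBF1 and AACS were listed in vehicle only, with scores of 79.8, 61.0 and 52.1. Peaks at MSMO1 (103.3), NSDHL (66.7), STARD4 (59.5) and, shared, FADS1 and FADS2 (63.5) were listed in gemcitabine only. Of these, MSMO1, NSDHL and STARD4 rose in RNA, and FADS1 and FADS2 fell. At FASN, SCD, INSIG1 and TM7SF2, which met the study's criteria in RNA, neither list held a peak within 1000 bases, which says only that none reached the lowest score of 50 in these lists.

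Neighbouring lipid pathways gave 79 tested genes of 82 listed in 7 groups. By adjusted p 18 rose and 17 fell, near the 18.5% and 20.0% of all genes tested, and by the study's criteria 3 were higher and 3 lower (3.80% each, against 5.69% and 4.43% of all genes tested). The median log2 fold change was 0.02. In SREBP processing and degradation none of 9 rose and 3 fell, led by ERLIN1, part of the complex that degrades sterol-regulated proteins (121 and 117 CPM in vehicle, 81.6 and 90.2 CPM after gemcitabine, -0.47), and by MBTPS2, the site-2 protease that releases SREBPs (169.5 and 175 CPM against 118 and 136 CPM, -0.44). Both treated libraries lay below the vehicle ones in each.

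In cholesterol trafficking and storage 5 of 11 rose and 2 fell. The counts of this list and those that follow stand beside 18.5% higher and 20.0% lower of all genes tested. NCEH1, a cholesteryl ester hydrolase, went from 39.9 and 39.4 CPM to 63.4 and 70.9 CPM (0.76, adjusted p 5.73e-06) and NPC2, which carries cholesterol out of lysosomes, from 28.7 and 24.8 CPM to 37.5 and 43.8 CPM (0.61, adjusted p 3.36e-04). TMEM97, which binds NPC1, fell (-0.58). Of the LXR receptors and targets, the sterol efflux side, 2 of 6 rose and 1 fell, NR1H3 (LXR alpha) by 0.51 and the cholesterol exporter ABCA1 by 0.46. In the isoprenoid branches 1 of 11 rose and 4 fell, with RABGGTB, a subunit of the Rab prenyl transferase (88.6 and 96.5 CPM to 62.8 and 48.2 CPM, -0.74), and PDSS1, which makes the ubiquinone side chain (-0.70), both called lower by the study's criteria. COQ2, which attaches that chain, stood at -0.54, with 1 gemcitabine estimate marked as failed. Leaving out 1 library at a time gave RABGGTB values between -0.94 and -0.56, PDSS1 between -0.89 and -0.54, and NPC2 between 0.49 and 0.72, so that each crossed the fold limit in some.

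Among 17 further fatty acid synthesis genes 2 rose and 3 fell, again beside 18.5% and 20.0% of all genes tested. The strongest was MID1IP1, an activator of acetyl-CoA carboxylase, at 118 and 104 CPM in vehicle and 52.4 and 57.4 CPM after gemcitabine (-1.02 ± 0.08, adjusted p 4.55e-07). It fell by about as much as FASN. ACACB, the mitochondrial acetyl-CoA carboxylase, rose by 0.45 on the log2 scale and ELOVL5 changed by -0.25. Of 12 triglyceride and phospholipid genes 4 rose and 2 fell, with LPIN3 at 6.40 and 7.03 CPM in vehicle and 12.8 and 8.30 CPM after gemcitabine (0.65, adjusted p 0.0164). Its value lay between 0.31 and 0.93 when 1 library was left out. AGPAT3, an acyltransferase with estimates marked as failed in 1 library of each treatment, stood at -0.45 and PCYT1A, of phosphatidylcholine synthesis, at 0.33. Fatty acid oxidation had 4 of 13 genes higher and 2 lower, with CPT1A, the carnitine transferase that admits fatty acids to mitochondria, at -0.54 and ACADVL, the very long chain acyl-CoA dehydrogenase, at 0.38.

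**Figure D5:**
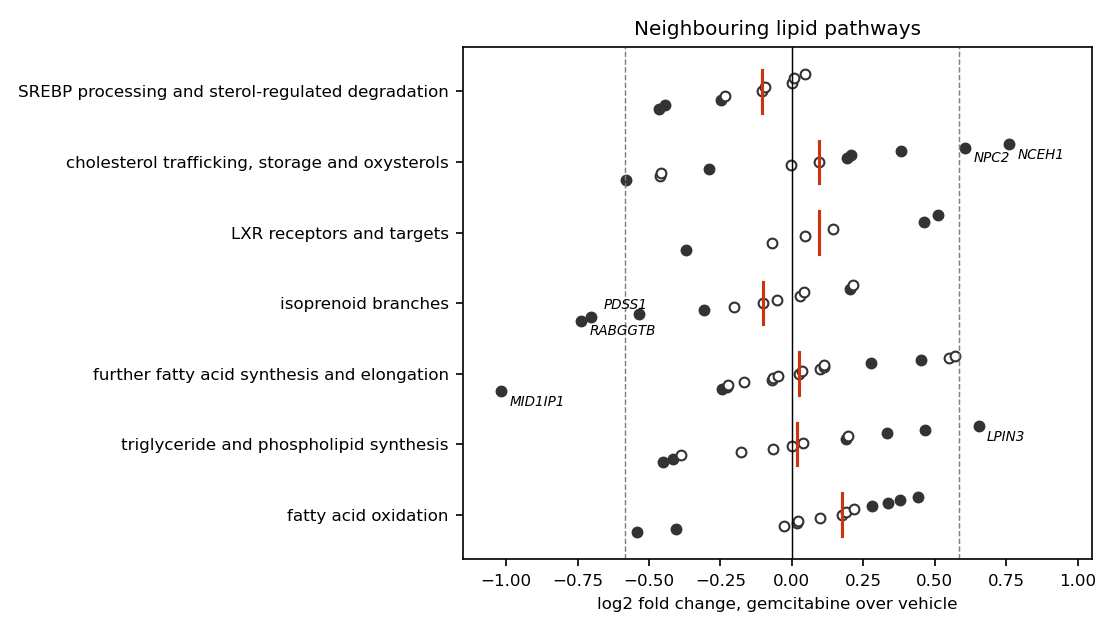
Log2 fold change (gemcitabine over vehicle, horizontal axis) of 79 genes in 7 neighbouring lipid pathways, 1 point per gene. Filled points passed an adjusted p of 0.05 in edgeR, red bars are list medians and dashed lines mark 1.5-fold. Named genes met the study's criteria with edgeR's adjusted p and fold. MID1IP1 lies farthest from 0, at -1.02.

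Several calls depended on the scaling or on 1 library. With library totals in place of TMM the median of all genes tested moved to 0.12 and that of the 33 genes to 0.14, and 5 genes were called higher and 1 lower, as ACAT2, IDI1 and STARD4 passed the fold limit and INSIG1 and SCD dropped below it. DHCR7 (adjusted p 0.0574), SCAP (0.0666), FADS1 (0.101) and FADS2 (0.229) no longer passed the test with library totals, and LSS turned positive (0.03). When vehicle replicate 1 was left out MVK, MVD, MSMO1, NSDHL, SQLE, DHCR7, SREBF2, SCAP, INSIG2, ELOVL6, FADS1 and FADS2 did not pass, and of these all but MVK and MSMO1 did not pass without vehicle replicate 2 either. Without gemcitabine replicate 1 INSIG1 measured -0.52 and SCD -0.49 and neither was called, and SCD measured -0.57 and was not called without vehicle replicate 2, whereas FASN kept a log2 fold change between -0.99 and -0.93 and ACSS2 between 0.92 and 1.03 whichever library was left out. On FPKM the ELOVL6 difference turned positive (24.6 and 13.5 FPKM in vehicle, 31.4 and 17.9 FPKM after gemcitabine, log2 difference 0.36 with limma), so its direction depends on the unit. LSS, SREBF1 and ACLY, which did not pass in either unit, also turned positive there. MVD, SREBF2 and FADS2 kept their direction, but their treatments overlapped in FPKM (log2 differences 0.22, -0.08 and -0.05 with limma).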

How the data were processed

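RNA-seq libraries of PANC1 cells (2 vehicle, 2 gemcitabine) and 1 DNaseI-seq library per treatment were analysed. Per the submitters' notes and the study's methods, the authors used TopHat2 2.0.8 for alignment of single-end reads (hg19) and estimated fragment counts and FPKM per gene with Cuffdiff 2.0.2 on protein-coding Gencode annotations. The deposited estimated counts (raw fragments) were not normalized, and 27 of 33 members had whole counts in every library (tolerance 0.001). The deposited FPKM were scaled by the authors' Cuffdiff run. The deposited peak lists give MACS peaks per treatment with a score of -10 log10 p (p-value). The per-sample columns not used here number 2.

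Estimated counts were rounded, genes with fewer than 10 fragments over the 4 libraries removed, and 14854 genes fitted with edgeR 4.0.16 (R 4.3.3; TMM, quasi-likelihood, Benjamini-Hochberg). A gene was called at adjusted p under 0.05, fold above 1.5, mean FPKM of at least 0.1 in 1 treatment and a difference of at least 1 FPKM. The adjusted p and the fold were edgeR's, from counts, where the study used Cuffdiff. Standard errors were derived as the absolute log2 fold change over the square root of edgeR's F statistic. In 275 genes an estimate was marked as failed. The floor of 3 fragments is 0.190 to 0.227 CPM, a limit of counting error only. Alternatives used DESeq2 1.42.0, limma 3.58.1 on log2(FPKM + 1) or log2(FPKM + 0.1), other scalings and filters, each library left out, and a replicate block. Scripts were tested on simulated data.

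Identifiers were matched to symbols with the gene tables given (19619 of 20461). Peaks were set against annotated starts on hg19 (GENCODE v44lift37), and promoters came from RefSeq. All members were named, with library values for those at adjusted p under 0.05. Of neighbouring lists, called genes and otherwise at most the 2 with the smallest adjusted p were named. The members and lists were chosen with earlier results of these data known.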

Additional observations from a re-analysis of the deposited data

How the results depend on the processing

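Of the 22 genes with an adjusted p under 0.05, 21 kept their direction in all 14 alternatives, ELOVL6 being the exception, and 26 of all 33 did so. None of the 22 (0) kept its side of the threshold in every alternative, 10 of them did in those on counts, without limma, and the 2 genes that did, HSD17B7 and SC5D, never passed it. Library totals in place of TMM gave 5 genes called higher and 1 lower, 6 lower by adjusted p, and medians of 0.1425 (all 33), 0.4552 (mevalonate), 0.2308 (squalene to cholesterol), -0.1497 (SREBP regulators) and -0.1096 (fatty acid), with LSS at 0.0303. The cause was not tested beyond the shift of the median of all genes to 0.117. With limma on log2(FPKM + 1) 1 gene was called lower, 4 were higher and 1 lower by adjusted p, and the medians were 0.2183, 0.4319, -0.0831 and 0.0523 (all, mevalonate, SREBP regulators, fatty acid). LSS was 0.1388, SREBF1 0.1266, ACLY 0.0523 and ELOVL6 0.3584, and 1 neighbouring gene was called lower. Without the filter these medians and 4 genes' values were the same, 0 genes were called lower, 3 were higher and 0 lower by adjusted p, and 1 neighbouring gene was called higher and 0 lower. With log2(FPKM + 0.1), limma called 0 genes higher and 0 lower, with 0 and 0 by adjusted p and 0 neighbouring genes in either direction. Medians there were 0.2266, 0.4344, -0.0844 and 0.0525, and LSS was 0.1458, SREBF1 0.1271, ACLY 0.0525 and ELOVL6 0.3748. DESeq2 gave 9 higher and 10 lower by adjusted p.

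Leaving out 1 library at a time, 1 to 3 genes were called lower, the lowest count being without gemcitabine replicate 1. By adjusted p 7 to 13 were higher and 3 to 12 lower, the lowest being without vehicle replicate 1 (7 and 3) and without vehicle replicate 2 (9 and 3). The fatty acid median lay between -0.3327 and -0.1091, and 1 to 3 neighbouring genes were called higher, with 1 without vehicle replicate 2. PMVK lay between -0.0899 and 0.1789, AACS between -0.0375 and 0.0633 and LPIN1 between -0.0711 and 0.1519. With the replicate block on the table's own index the counts were 2 higher and 3 lower, and 12 and 10 by adjusted p. The index is not tied to the labels' numbers, and deviations of same-numbered libraries correlated at -0.053 over 10010 genes, so the numbers were taken as names only. Peaks scoring at least 100 lay at 7 genes in vehicle (21.2% against 8.0% of all genes tested with a start) and 7 in gemcitabine (21.2% against 9.91%). CACNCCAC was in 4 promoters where TCACNCCAC was in 1. With 2 libraries per treatment, edgeR's p-values set each difference against a spread estimated from these libraries, with information shared over genes. They do not cover variation beyond these libraries.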
